A study of Mus musculus with 23 samples.

Results

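The histone modifier enzymes described here are the mouse genes whose symbols start with Kdm, Kmt, Hdac, Sirt, Prmt, Setd or Ehmt, together with Ezh1, Ezh2, Eed and Suz12, the core genes of Polycomb repressive complex 2 (PRC2). Kdm5d was left out by rule. Each gene was read from the probe set with the highest mean among those that name it alone, and was kept where its signal exceeded 100 on 3 or more arrays. Of 18194 genes named by the arrays 67 carried such a symbol and 63 of them were kept. The 63 comprise 15 Kdm, 10 Setd, 9 Hdac, 8 Kmt, 8 Prmt and 7 Sirt genes, 4 PRC2 genes and 2 Ehmt genes. Hdac8, Hdac9 and Kdm4d exceeded 100 on 0 arrays and Kdm4a on 1 array, and these 4 were left out. Just inside the limit stood Setdb2 with 3 arrays, Prmt8 with 4 and Hdac4 with 5. All 4 arrays that carried Prmt8 over the limit were arrays without cytokine, so a lower signal of this gene with cytokine is in part fixed by how it was kept. Its values are given as a description, and the counts below are over the other 62 members.

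Histones are marked by writers and cleared by erasers. The Ezh, Ehmt, Kmt and most Setd proteins are methyltransferases that place methyl groups on histone lysines, and the Prmt proteins do so on arginines of histones and of many other proteins. Kdm proteins remove lysine methylation, while Hdac proteins and the NAD-dependent sirtuins (Sirt) remove acetyl and other acyl groups. In the epiblast, the tissue that gives rise to the embryo proper, PRC2 and the H3K9 methyltransferases hold developmental and germline genes silent, and these marks are remodelled when germ cells form.

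The samples are epiblast-like cells, the epiblast's model in culture, made from male C57BL/6 embryonic stem cells, Wnt3+/+ (WT) or Wnt3-/- (KO), with activin A, bFGF and serum replacement in N2B27 medium. Both genotypes carry the BV transgene, a Venus reporter at the membrane driven by elements of Blimp1, a gene of germ cell specification. The cells were plated as floating aggregates in medium with serum replacement and LIF and were given no cytokine, BMP4 at 500 ng/ml or WNT3A at 50 ng/ml, and KO cells also both, and were taken after 12, 24 and 36 h, besides cells of each genotype at 0 h. Each genotype, condition and time has 1 array, 23 in all, and WT cells with both cytokines are not analysed here. BMP4 is a bone morphogenetic protein that signals through SMAD factors, and WNT3A activates the canonical Wnt pathway that the missing Wnt3 ligand would also use. How many stem cell lines stand behind each genotype and which part of Wnt3 is deleted are not given in the sources used here, and genotype and line cannot be told apart.

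Signals are deposited intensity values, and array medians lay between 36.8 and 41.4. Differences are in log2(signal + 16) after quantile normalization, averaged over 12, 24 and 36 h (n = 3 per condition), with the standard error (SE) of a limma model of 21 arrays. For a dim gene the added 16 makes the difference smaller than the true one. Counts of conditions that were higher or lower at 36 h than at 12 h are on the same normalized values. With no replicate at any time, the times serve in their place, and for 36 h against 12 h the 7 conditions do. The model takes out the change with time that the conditions share. A p-value sets a difference against the spread that is left, pooled over the 7 conditions, within 1 series of cultures. A gene was called at a Benjamini-Hochberg adjusted p under 0.05 over all 13258 genes tested, among them all 63 members. In RNA from whole aggregates, fewer cells that express a gene and less RNA per cell cannot be told apart.

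For 6 KO arrays the title and the array name exchange WNT3A and BMP4 with WNT3A at all 3 times. They are grouped here by title, as KO titled WNT3A and KO titled BMP4+WNT3A. Id1, a direct BMP target, went against those titles, at 5480.1, 7591 and 9345 in the arrays titled WNT3A and at 186, 256 and 1323 in those titled BMP4+WNT3A (12, 24 and 36 h). On 3 arrays (WT WNT3A at 24 h, KO without cytokine at 24 h and WT without cytokine at 36 h) the Gapdh 3' to 5' ratio, a measure of RNA integrity and amplification, was 4.03, 2.68 and 2.30, against 1.09 to 1.71 on the others. The epiblast marker Pou5f1 read between 5914 and 9542 on all arrays. The 2 defining genes of the set were well above the array medians everywhere, Ezh2 between 2048 and 3666 and Ehmt1 between 1418 and 2006. Wnt3 itself read at most 27.9 on KO arrays and reached 146 in WT with BMP4 at 36 h, but it stood at 10.4 in WT and 16.2 in KO at 0 h, so at 0 h it does not separate the genotypes.

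Most of the 63 genes held a steady signal across genotype, cytokine and time. The standard deviation of the normalized log2 signal over the 23 arrays had a median of 0.20 for the members and 0.22 for all genes tested. Hdac1 was the steadiest, at 6208 to 6985, a range of 0.18 on the log2 scale. Prmt8 varied most, from 6.5 to 170.1, with a standard deviation of 0.91 and a range of 3.03, followed by Sirt2, Kdm4c, Kmt2d, Kmt5b, Prmt7, Sirt7, Kmt2e, Ezh1 and Sirt1, whose standard deviations ran from 0.52 down to 0.32. Within the families the medians of the single probe sets ran from 449 (Ezh1) to 2896 (Ezh2), from 1783 (Ehmt1) to 2740.1 (Ehmt2), from 201 (Kmt5b) to 1992 (Kmt5a) and from 79.3 (Setdb2) to 11268 (Setd1a). For the arginine methyltransferases and the erasers they ran from 40.2 (Prmt8) to 2304 (Prmt5), from 153 (Kdm1b) to 2837 (Kdm1a), from 78.8 (Hdac4) to 6517 (Hdac1) and from 150.1 (Sirt4) to 917 (Sirt1). Probe sets differ in how well they hybridize, so these medians do not rank the genes by abundance.

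**Figure D1:**
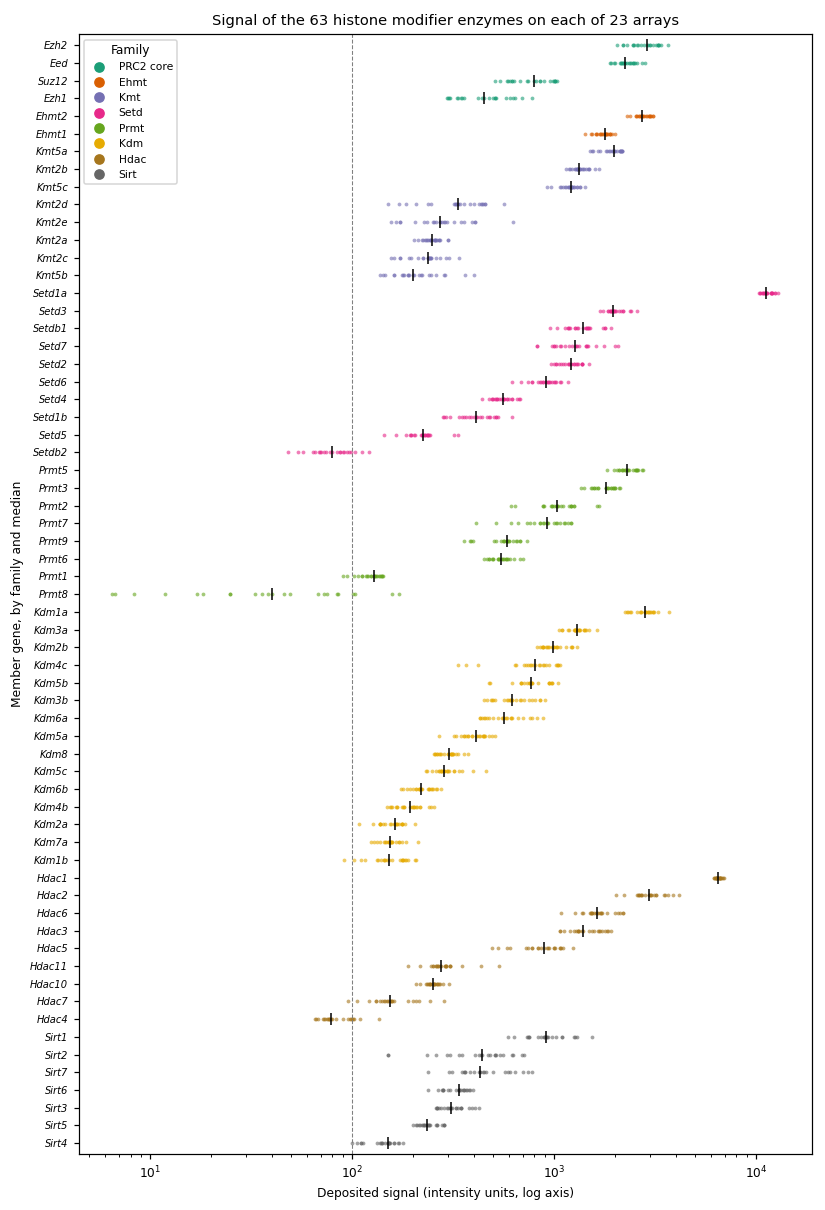
Deposited signal of each of the 63 members (rows, by family and then by median) on each of the 23 arrays (points, log axis), with the median as a vertical tick and the limit of 100 as a dashed line. Hdac1 stays within 6208 to 6985 while Prmt8 spreads from 6.5 to 170.1. Signals of different rows come from different probe sets and do not rank the genes.

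Cytokines moved few of these enzymes, and those called were mostly lower with cytokine: Sirt1, Hdac2 and Kmt5b. In WT, BMP4 lowered 1 of 62 members (1.61%), Sirt1, and raised 0, where 3.47% of all genes tested were called. WNT3A in WT moved 0 of 62 by limma, with 6 of 62 members and 1851 of 13258 genes (14%) at an unadjusted p under 0.05, where 0.543% of all genes were called. BMP4 in KO moved 0 of 62 by limma, with 8 of 62 at an unadjusted p under 0.05, where 0.573% of all genes were called. In the KO arrays titled WNT3A Sirt1, Hdac2 and Kmt5b were lower and Prmt7 was higher than without cytokine, which is 6.45% of the 62 against 9.56% of all genes. In those titled BMP4+WNT3A Kmt5b, Sirt1 and Hdac2 were lower and 0 members higher, which is 4.84% against 6.83% of all genes. All KO groups are set against the same control arrays, and so are both WT groups, so their calls are not independent of each other. On the values as deposited the arrays titled BMP4+WNT3A had 1 lower member, and the share of higher genes among all calls was 62.4% there against 44.5% after quantile normalization. Over the 62 members the share called was below that of all genes in these 5 comparisons. With Prmt8 counted it was 1.59% against 0.573% for BMP4 in KO. The shares rest on few calls and are not read as a result about the members.

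The genotypes were compared with BMP4 and without cytokine. KO cells with BMP4 had 5 of 62 members higher (Sirt1, Kdm6a, Setdb1, Hdac2 and Kmt5b) and 1 lower (Sirt7) than WT cells with BMP4, which is 9.68% of the members against 7.28% of all genes. On the values as deposited 4 were higher and 1 lower, and 69.5% of all calls were higher against 59.4%. Cell type markers moved in the same comparison. Of the mesoderm markers Mixl1 and Evx1 were lower (2 of 4), and their summed list read 109 to 219.8 in KO and 830.2 to 11276 in WT. Of the epiblast markers Pou3f1 and Otx2 were higher (2 of 5), with sums of 23800.1 to 25898 and 12488 to 20514, and of the neural markers Pax6 and Tubb3 (2 of 3), with sums of 1270 to 1610 and 114 to 681. Tfap2c, 1 of 4 genes tested from the trophoblast list, was lower. The part of these markers in the 6 member calls was not tested.

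Without cytokine 0 of 62 members were called by limma between KO and WT, with 10 of 62 members and 1633 of all genes (12.3%) at an unadjusted p under 0.05, where 0.113% of all genes were called. The BMP4 response itself differed between the genotypes for 0 members and 0% of all genes, with 1 of 62 members and 783 of 13258 genes at an unadjusted p under 0.05. The KO arrays titled BMP4+WNT3A and those titled WNT3A differed in 0 members, with 4 of 62 members and 978 of all genes (7.38%) at an unadjusted p under 0.05, where 0.339% of all genes were called. At 36 h 9 members were higher and 11 lower than at 12 h, which is 32.3% of the 62 members against 38.8% of all genes. Time compares 7 arrays with 7, and the other comparisons 3 with 3, so the counts cannot be ranked. The median absolute difference of the 63 members, Prmt8 included, was 0.157 with time and 0.148 in KO titled WNT3A. Over all genes it was 0.178 and 0.152.

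The members as a whole moved little, and the sign of their median depends on the scaling. The median difference of the 62 was -0.078 with BMP4 in WT and -0.061 in KO titled WNT3A, and stayed below 0 on the values as deposited (-0.097 and -0.036). It was -0.013 with WNT3A in WT, -0.039 in KO titled BMP4+WNT3A and -0.03 with time, and turned to 0.023, 0.033 and 0.11 on the values as deposited. With BMP4 in KO it was -0.017. Between the genotypes it was 0.06 without cytokine and 0.046 with BMP4, against -0.0032 and -0.0098 for all genes.

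The counts rest on few arrays, and without the 24 h arrays they were the lowest or as low as without another time. With Prmt8 counted, BMP4 in WT called 2 members, BMP4 in KO 1, KO titled WNT3A 5, KO titled BMP4+WNT3A 4 and KO against WT with BMP4 7. Without the 12, 24 or 36 h arrays, BMP4 in WT called 1, 0 and 1 members and BMP4 in KO 1, 0 and 0. The KO arrays titled WNT3A called 2, 1 and 5, those titled BMP4+WNT3A 1, 0 and 5, and KO against WT with BMP4 4, 0 and 3. These counts include Prmt8. Shares of all genes called in these fits are not given here, so fewer calls over all genes cannot be told apart from a change in the members.

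**Figure D2:**
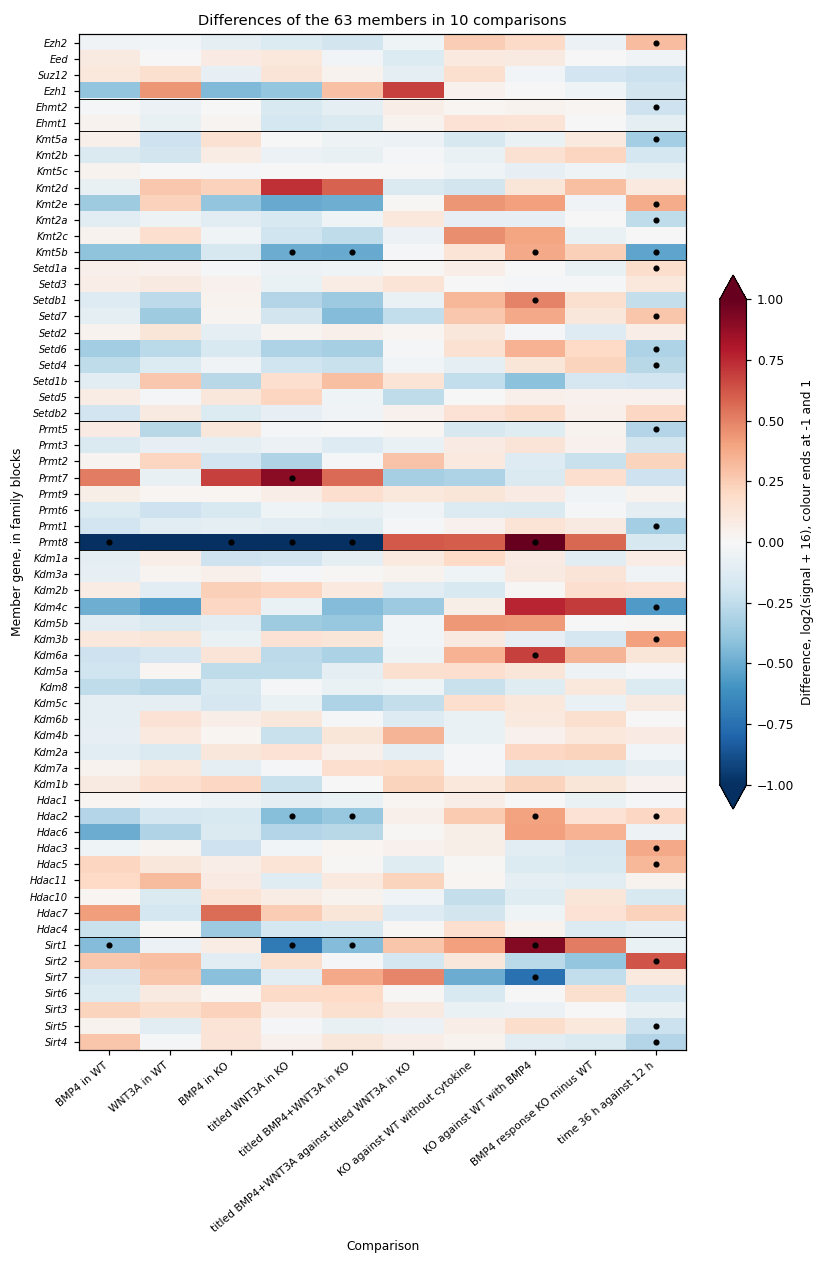
Difference of each of the 63 members (rows, in family blocks) in each of the 10 comparisons (columns), in log2(signal + 16), as colour from lower (blue) to higher (red), with a black dot where the adjusted p was under 0.05. The dots in the first 5 columns number 2, 0, 1, 5 and 4, against 20 in the column of time, and Prmt8 is 1 of each count above 0 in the first 5.

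The promoters of Prmt8, Sirt1, Hdac2 and Kmt5b are shown because these are the members that were lower in the KO groups titled with WNT3A. The RefSeq promoter table (GRCm38.p6) holds 52 of the 63 members with 69 promoters, each a window of 300 bases around a start site. Sequences run 5′ to 3′ on the strand of the gene, and capitals mark CpG dinucleotides.
Prmt8, chr6:127769106-127769405, minus strand: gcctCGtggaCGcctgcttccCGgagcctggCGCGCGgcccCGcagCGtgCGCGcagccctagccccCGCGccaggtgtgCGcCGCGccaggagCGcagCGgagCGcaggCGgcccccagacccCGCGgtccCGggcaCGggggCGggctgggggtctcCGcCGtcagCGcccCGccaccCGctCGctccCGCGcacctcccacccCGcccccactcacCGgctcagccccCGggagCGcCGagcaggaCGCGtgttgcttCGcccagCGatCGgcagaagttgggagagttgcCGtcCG
Sirt1, chr10:63338986-63339285, minus strand: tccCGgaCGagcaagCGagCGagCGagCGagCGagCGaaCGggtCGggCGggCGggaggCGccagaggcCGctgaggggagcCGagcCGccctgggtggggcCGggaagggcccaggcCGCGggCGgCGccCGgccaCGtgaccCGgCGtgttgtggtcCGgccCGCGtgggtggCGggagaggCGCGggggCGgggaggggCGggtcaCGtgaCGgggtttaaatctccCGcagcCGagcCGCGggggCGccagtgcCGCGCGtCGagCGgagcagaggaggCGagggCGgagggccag
Hdac2, chr10:36974294-36974593, plus strand: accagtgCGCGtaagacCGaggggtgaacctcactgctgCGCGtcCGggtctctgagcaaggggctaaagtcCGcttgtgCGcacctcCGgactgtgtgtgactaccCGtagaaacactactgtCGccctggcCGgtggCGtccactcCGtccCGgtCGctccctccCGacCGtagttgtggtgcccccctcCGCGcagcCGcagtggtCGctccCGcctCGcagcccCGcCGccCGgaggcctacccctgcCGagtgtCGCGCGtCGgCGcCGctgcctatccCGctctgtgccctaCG
Kmt5b, chr19:3767171-3767470, plus strand: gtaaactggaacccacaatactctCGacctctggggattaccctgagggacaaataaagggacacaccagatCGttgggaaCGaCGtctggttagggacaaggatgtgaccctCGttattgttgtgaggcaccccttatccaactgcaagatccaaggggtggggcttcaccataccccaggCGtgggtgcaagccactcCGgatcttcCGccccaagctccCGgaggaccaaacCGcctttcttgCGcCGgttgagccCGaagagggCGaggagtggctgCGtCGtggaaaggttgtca
These windows hold 44, 47, 36 and 16 CpGs, and a second start of Kmt5b (chr19:3767639-3767938) holds 38. The median was 24 CpGs over the 69 member promoters and 7 over the 32841 promoters of all genes, and 20 or more CpGs stood in 66.67% and 26.49% of them. The letters CTTTGAT on either strand, a core of TCF and LEF sites, stood in 1 member promoter (1.449%), against 3.73% of all, and in 0 of the windows just named. The letters GGCGCC, a palindrome that SMAD factors of the BMP pathway can bind, stood in 20 member promoters (28.99%), against 11.87% of all. They were found in the windows of Sirt1 and Hdac2 and of the second Kmt5b start, and not in that of Prmt8. The median GC content of the windows was 62.67% for the members and 52.67% for all. A match describes the sequence and not binding.

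PRC2 places H3K27 methylation, with Ezh2 or Ezh1 as its enzyme, Eed as the subunit that binds the finished mark and Suz12 as the scaffold. Cytokine and genotype called 0 of the 4 genes by limma. Ezh2 was the 1 member of the complex that changed with time. Its signal at 12, 24 and 36 h was 2504, 2195 and 3281 in WT and 2574, 3666 and 3259 in KO without cytokine, and 2048, 2684 and 2896 in WT and 2210.3, 3259 and 3397 in KO with BMP4. It was higher at 36 h than at 12 h in 7 of 7 conditions, with a difference of 0.30 ± 0.073 (adjusted p = 0.0035). At 0 h Ezh2 read 2916 in WT and 2978 in KO. From 0 h to 12 h without cytokine it changed by -0.23 in WT and -0.19 in KO, with 1 array each and no test. The rise is thus counted from a 12 h level below that of 0 h. Ezh1 had the most uneven course of the 4. Its signal was 419, 508 and 474 in WT without cytokine, 626, 776 and 609 with WNT3A and 359.5, 331 and 345 with BMP4. In KO it was 439.6, 519 and 501 without cytokine, 349.7, 300.2 and 449 with BMP4, 644, 580.0 and 695 in the arrays titled BMP4+WNT3A and 508, 335 and 307 in those titled WNT3A. Values with WNT3A in WT lay above all without cytokine and those with BMP4 below, with no overlap, yet the differences of 0.44 ± 0.16 (adjusted p = 0.256) and -0.40 ± 0.16 (adjusted p = 0.225) did not pass. The 2 titled KO groups did not overlap either, and their difference of 0.68 ± 0.16 (adjusted p = 0.137) did not pass. Its sign turns if the array names are right. The group with the higher Ezh1 was that in which Id1 was low. Eed, between 1885 and 2817, and Suz12, between 512 and 1038, passed in none of the 10 comparisons.

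Ehmt1 and Ehmt2 encode GLP and G9a, which together place H3K9 mono- and dimethylation. Ehmt1 ran from 1418 to 2006 over the 23 arrays and Ehmt2 from 2288 to 3104, and cytokine or genotype called neither. Ehmt2 was lower at 36 h in 7 of 7 conditions, with a difference of -0.21 ± 0.065 (adjusted p = 0.018). That call ended on the values as deposited, at -0.11 (adjusted p = 0.185), and with the arrays centred on their medians, at -0.16 (adjusted p = 0.057), and the mean with its other probe set, which read at most 22.2, gave 0.0065 (adjusted p = 0.969).

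Among the Kmt genes, Kmt5b was the one called with cytokine. It encodes an enzyme that adds further methyl groups to H4K20 after Kmt5a has placed the first. Its signal at 0 h was 365 in WT and 402 in KO. Without cytokine it was 259.6, 221 and 201 in WT and 286, 288 and 190.0 in KO, and with BMP4 179, 177 and 138 in WT and 241, 247 and 204 in KO. In KO it was 190.0, 161 and 181 in the arrays titled WNT3A and 214, 191 and 146 in those titled BMP4+WNT3A, lower at each time than without cytokine, although the ranges overlap. The differences from KO without cytokine were -0.49 ± 0.11 (adjusted p = 0.0094) and -0.51 ± 0.11 (adjusted p = 0.0111), in that order. Differences in WT of -0.40 ± 0.11 (adjusted p = 0.0581) with BMP4 and -0.41 ± 0.11 (adjusted p = 0.125) with WNT3A did not pass. KO with BMP4 was higher than WT with BMP4 by 0.38 ± 0.11 (adjusted p = 0.0489). At 36 h it was lower than at 12 h in 7 of 7 conditions, with a difference of -0.53 ± 0.072 (adjusted p = 4.15e-05).

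The probe sets of Kmt5b disagree. Of the others that exceeded 100, one gave -0.18 titled WNT3A, 0.035 titled BMP4+WNT3A, -0.021 between the genotypes with BMP4 and 0.41 with time, and another gave -0.22, -0.13, 0.16 and 0.15. A dim one, with a median of 39.9, went the way of the brightest in all 4, at -0.25, -0.42, 0.46 and -0.28. The dimmest, which read at most 17.4, gave -0.35, -0.096, 0.013 and -0.33. With the mean of all probe sets 0 of the 4 calls held by limma, and the value with time was -0.11 (adjusted p = 0.189). Without the 3 arrays of high Gapdh ratio, of which KO without cytokine at 24 h is one, the differences were -0.46 (adjusted p = 0.0721) titled WNT3A and -0.47 (adjusted p = 0.0801) titled BMP4+WNT3A. Between the genotypes with BMP4 the value was then 0.38 (adjusted p = 0.0799), and these 3 calls ended.

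Kmt5a, which places H4K20 monomethylation, was lower at 36 h in 6 of 7 conditions, with a difference of -0.34 ± 0.077 (adjusted p = 0.0026), and a second bright probe set gave -0.43. The H3K4 methyltransferase Kmt2a was lower at 36 h in 7 of 7 conditions (-0.25 ± 0.07, adjusted p = 0.00917). Kmt2e, named with the Kmt2 genes, was higher in 7 of 7 (0.37 ± 0.13, adjusted p = 0.0351). The Kmt2a difference was -0.076 (adjusted p = 0.432) on the values as deposited and did not pass. The 5 other Kmt2e probe sets read at most 38.6, and the mean that includes them was -0.021 (adjusted p = 0.826). Kmt2d, an H3K4 methyltransferase of enhancers, was uneven without a call. Its signal without cytokine was 343, 329 and 208 in WT and 150.1, 246 and 434 in KO, so the genotypes crossed over time. Kmt2b, Kmt2c and Kmt5c were called in none of the 10 comparisons.

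Of the Setd genes, Setdb1, the methyltransferase of H3K9 trimethylation that silences endogenous retroviruses, differed between the genotypes with BMP4. Its signal was 1448, 1758 and 1924 in KO and 1176, 1269 and 1136 in WT, with no overlap, a difference of 0.49 ± 0.15 (adjusted p = 0.0495). Without cytokine it was 1458, 1795 and 1795 in KO and 1499, 1314 and 1193 in WT, and that difference of 0.34 ± 0.15 (adjusted p = 0.362) did not pass. The call stood at the edge of the threshold and held in 3 of 12 alternatives, and without the 3 arrays of high Gapdh ratio it was 0.49 (adjusted p = 0.0557). The 2 other Setdb1 probe sets read at most 18.4 and 29.4, below the array medians, and the mean that includes them was 0.10 (adjusted p = 0.597).

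Setd1a and Setd7 were higher at 36 h and Setd4 and Setd6 lower. Setd1a, an H3K4 methyltransferase, rose from 10960.3 to 12077 in WT and from 11268 to 12417 in KO without cytokine between 12 and 36 h, 0.18 ± 0.034 (adjusted p = 0.000685) over the 7 conditions. Setd7, which methylates H3K4 and non-histone proteins, differed by 0.28 ± 0.10 (adjusted p = 0.0396), in 5 of 7 conditions. Setd6, which methylates non-histone proteins, differed by -0.31 ± 0.082 (adjusted p = 0.00742) and Setd4 by -0.28 ± 0.063 (adjusted p = 0.00267), lower in 6 and 7 of 7 conditions. On the values as deposited Setd4 gave -0.09 (adjusted p = 0.336) and Setd6 -0.14 (adjusted p = 0.203), and neither passed. A second probe set of Setd1a gave 0.014, those of Setd4 and Setd6 gave -0.35 and -0.24, and the mean of the Setd7 probe sets, of which the other read at most 58.5, gave -0.035 (adjusted p = 0.818). Without the 3 arrays of high Gapdh ratio Setd7 gave 0.27 (adjusted p = 0.0593). The other 5 Setd genes were called in none of the 10 comparisons.

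Among the arginine methyltransferases Prmt8, a membrane-bound relative of Prmt1 known from neurons, read lower on every array with cytokine than on those without. Its 0 h signal was 75.1 in WT and 84.4 in KO. Without cytokine it was 73, 103 and 85.6 in WT and 101, 158 and 170.1 in KO. The 4 values above 100 among these kept the gene in the set. With BMP4 it was 33.1, 8.28 and 6.73 in WT and 49.2, 46.2 and 67.6 in KO, and with WNT3A in WT 40.2, 24.8 and 35.8. In KO it was 17.1, 6.5 and 11.8 in the arrays titled WNT3A and 38.6, 18.3 and 24.8 in those titled BMP4+WNT3A. Every cytokine group lay below the group without cytokine of its genotype, with no overlap. Many of the lower values are at or under the median of their array, where presence and absence of the transcript are not separated.

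As a description, with no test because the control arrays chose the gene, the difference of Prmt8 from the arrays without cytokine was -1.78 with BMP4 and -1.07 with WNT3A in WT. In KO it was -1.21 with BMP4, -2.51 titled WNT3A and -1.90 titled BMP4+WNT3A. KO with BMP4 was higher than WT with BMP4 by 1.18, and KO without cytokine was higher than WT without cytokine by 0.60. Of the neural markers Sox1, Pax6 and Tubb3, 2 fell with BMP4 in WT, 3 in KO titled WNT3A and 2 in KO titled BMP4+WNT3A, while 0 of 3 were called by limma with BMP4 in KO and with WNT3A in WT. Their summed signal was 1573 to 2105 in WT and 1559 to 2872 in KO without cytokine. It was 114 to 681 with BMP4 and 488 to 928 with WNT3A in WT, and 1270 to 1610 with BMP4, 135 to 489.6 titled WNT3A and 330.1 to 901 titled BMP4+WNT3A in KO. Tubb3 carried most of that sum, Sox1 and Pax6 had medians of 34.3 and 39.4, and none of the 3 stood at 0. Their part in the result was not tested.

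Prmt7, which monomethylates arginine, was the 1 member that rose with a cytokine. It read 1209, 1067 and 1209 in KO titled WNT3A and 666, 413 and 798 in KO without cytokine, with no overlap, and rose by 0.90 ± 0.22 (adjusted p = 0.0178). In the arrays titled BMP4+WNT3A it was 1121, 1031 and 734, which overlaps the control, and 0.57 ± 0.22 (adjusted p = 0.155) did not pass. The 3 lowest Prmt7 values of the series, 413 to 613, were those of the 3 arrays with the high Gapdh ratio, against 666 to 1209 elsewhere, and KO without cytokine at 24 h is one of them. Without these arrays the rise was 0.61 (adjusted p = 0.0623), and it did not pass. A second, dimmer probe set gave -0.22. Prmt1, the main enzyme of asymmetric dimethylarginine, and Prmt5, that of symmetric dimethylarginine, were both lower at 36 h in 7 of 7 conditions, with differences of -0.34 ± 0.082 (adjusted p = 0.0036) and -0.29 ± 0.06 (adjusted p = 0.00111). The Prmt1 probe set was dim, at 90.5 to 142. Both calls held in 10 of 10 alternatives, but each gene has 1 probe set, so averaging probe sets could not change its values. Prmt2, Prmt3, Prmt6 and Prmt9 were called in none of the 10 comparisons.

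Cytokines called 0 of the 15 lysine demethylases by limma. Kdm6a (UTX), which removes H3K27 methylation and so opposes PRC2, differed between the genotypes with BMP4. Its signal was 704, 826 and 781 in KO and 431, 431 and 530.1 in WT, with no overlap, a difference of 0.68 ± 0.15 (adjusted p = 0.00939). Without cytokine it was 584, 666 and 885 in KO and 452, 568 and 622 in WT, and 0.34 ± 0.15 (adjusted p = 0.35) did not pass. Its 0 h signal was 443 in WT and 478 in KO. A second probe set gave 0.59 for the genotypes with BMP4.

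Kdm3b and Kdm4c, demethylases of H3K9, changed with time in opposite directions. Kdm3b was higher at 36 h in 7 of 7 conditions, with a difference of 0.41 ± 0.051 (adjusted p = 1.63e-05), reading 498, 592 and 689.8 in WT and 512, 648 and 755 in KO without cytokine. A dimmer second probe set gave -0.35, and the mean of all gave 0.029 (adjusted p = 0.697). Kdm4c was lower in 6 of 7 conditions, with a difference of -0.56 ± 0.17 (adjusted p = 0.0174), and on the values as deposited -0.39 (adjusted p = 0.0758) did not pass. Its fall was uneven. The signal ended at 335 with WNT3A and 367 with BMP4 in WT, against 809 without cytokine. In KO it ended at 419 titled BMP4+WNT3A, 709 titled WNT3A and 1031 with BMP4, against 949 without cytokine. Kdm1a (LSD1), the amine oxidase of the family, read between 2257 and 3717 and was called in none of the 10 comparisons, nor were the other 11 Kdm genes.

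Hdac2 was the 1 deacetylase of the Hdac family that moved with cytokine or genotype. With its close relative Hdac1 it forms the catalytic pair of the NuRD, Sin3 and CoREST corepressors. Its signal was 3019, 4153 and 3875 in KO without cytokine, 2226, 3148 and 2998 titled WNT3A and 2574, 3214 and 2957 titled BMP4+WNT3A. At each time both titled groups were lower than without cytokine, although the ranges overlap. The differences were -0.42 ± 0.10 (adjusted p = 0.0106) and -0.38 ± 0.10 (adjusted p = 0.0281). The control array at 24 h has a high Gapdh ratio and the highest Hdac2 signal of the series. Without the 3 such arrays the first was -0.42 (adjusted p = 0.0481), and the second was -0.37 (adjusted p = 0.0963) and did not pass. In WT it was 2957, 2684 and 3517 without cytokine and 2019.8, 2647 and 2684 with BMP4, and -0.29 ± 0.10 (adjusted p = 0.119) did not pass. KO with BMP4, at 2610.3, 3692 and 3566, was higher than WT with BMP4 at each time, by 0.41 ± 0.10 (adjusted p = 0.0179). That contains a difference without cytokine of 0.26 ± 0.10 (adjusted p = 0.290), which did not pass. The BMP4 responses differed by 0.14 ± 0.14 (adjusted p = 0.947), which did not pass either. A second bright probe set gave -0.44, -0.39 and 0.43 for the titled WNT3A, titled BMP4+WNT3A and BMP4 genotype comparisons. Hdac1 passed in none of the 10.

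Hdac2, Hdac3 and Hdac5 were higher at 36 h in 7 of 7 conditions. Hdac3, the enzyme of the NCoR complex, rose by 0.38 ± 0.053 (adjusted p = 5.16e-05), reading 1323, 1314 and 1795 in WT and 1287, 1663 and 1652 in KO without cytokine. Hdac5, a class IIa deacetylase that shuttles between nucleus and cytoplasm, rose by 0.33 ± 0.10 (adjusted p = 0.018) and Hdac2 by 0.21 ± 0.064 (adjusted p = 0.0152). Without the 3 arrays of high Gapdh ratio the rise of Hdac2 was 0.18 (adjusted p = 0.056). Hdac4, Hdac6, Hdac7, Hdac10 and Hdac11 were called in none of the 10 comparisons.

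Sirt1, a nuclear NAD-dependent deacetylase of histones and transcription factors, was called in 4 comparisons. Its 0 h signal was 917 in WT and 923 in KO. In WT it was 832, 917 and 976 without cytokine, 635, 592 and 744 with BMP4 and 867, 936 and 891 with WNT3A. In KO it was 1098, 1296 and 1269 without cytokine and 1252, 1541 and 1098 with BMP4, and 749.6, 734 and 755 titled WNT3A and 904, 898 and 1024 titled BMP4+WNT3A. BMP4 arrays lay below all control arrays in WT, and both titled groups did so in KO, while the KO arrays with BMP4 alone overlapped their controls.

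The difference of Sirt1 from the arrays without cytokine was -0.43 ± 0.11 (adjusted p = 0.0404) with BMP4 in WT. It was -0.71 ± 0.11 (adjusted p = 0.000757) in KO titled WNT3A and -0.43 ± 0.11 (adjusted p = 0.0277) in KO titled BMP4+WNT3A. With BMP4 in KO the difference was 0.076 ± 0.11 (adjusted p = 0.885). KO with BMP4 exceeded WT with BMP4 by 0.92 ± 0.11 (adjusted p = 0.000162), which contains a difference without cytokine of 0.41 ± 0.11 (adjusted p = 0.162). The test of the difference between the BMP4 responses gave 0.51 ± 0.16 (adjusted p = 0.559) and did not pass, at an unadjusted p of 0.0049. The call for BMP4 in WT ended without the 3 arrays of high Gapdh ratio, at -0.40 (adjusted p = 0.199), and so did that for KO titled BMP4+WNT3A, at -0.43 (adjusted p = 0.112). Markers of mesoderm and of the epiblast moved in these groups too. Of Mesp1, Mixl1, Evx1 and Hand1, 1 rose with BMP4 in WT and in each titled KO group, and it was Evx1. Of Pou5f1, Fgf5, Pou3f1, Otx2 and Dnmt3b, 2 fell with BMP4 in WT, 3 in KO titled WNT3A and 2 in KO titled BMP4+WNT3A. The summed signal of the mesoderm markers was 126 to 785 in WT without cytokine and 830.2 to 11276 with BMP4. In KO it was 90.7 to 137 without cytokine, 109 to 219.8 with BMP4, 759.7 to 3616 titled WNT3A and 199 to 1815 titled BMP4+WNT3A. None of these markers stood at 0. The part of either list in the result was not tested.

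Sirt7, a nucleolar deacetylase of H3K18, was the 1 member lower in KO with BMP4. It read 302, 239 and 349.7 in KO and 402, 431 and 639 in WT, with no overlap, a difference of -0.74 ± 0.16 (adjusted p = 0.0105). Without cytokine it was 357, 428 and 385 in KO and 461, 609 and 592 in WT, again with no overlap, and -0.50 ± 0.16 (adjusted p = 0.241) did not pass. Sirt2, a largely cytoplasmic deacetylase, had the largest rise with time of all members, 0.63 ± 0.13 (adjusted p = 0.00134), and started at 151 in WT and 151 in KO at 0 h. It reached 236, 443 and 556 in WT and 296, 512 and 512 in KO without cytokine, higher at 36 h than at 12 h in 6 of 7 conditions. The mitochondrial Sirt4 and Sirt5 were lower at 36 h in 7 of 7 conditions after quantile normalization, but not in every condition by deposited signal. Their differences were -0.30 ± 0.10 (adjusted p = 0.0249) and -0.21 ± 0.07 (adjusted p = 0.0229). On the values as deposited they gave -0.15 (adjusted p = 0.216) and -0.04 (adjusted p = 0.664), and neither passed. Sirt3 and Sirt6 were called in none of the 10 comparisons.

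**Figure D3:**
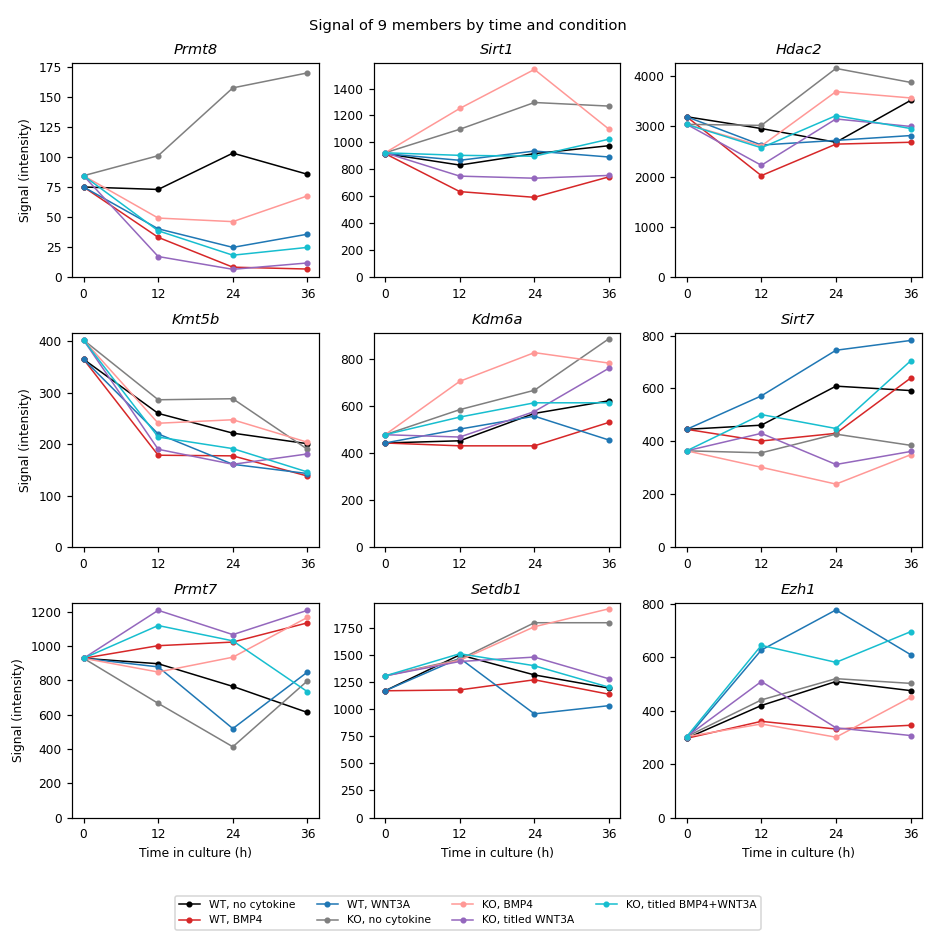
Signal of 9 members on each array against time in culture (0 to 36 h), 1 line per genotype and condition and 1 array per point, with the 0 h array of the genotype as the start of each line. Prmt8 stays above 70 on the 6 arrays without cytokine and below 70 on the others from 12 h, and the lines of Sirt1 in KO titled WNT3A (734 to 755) lie below those of KO without cytokine (1098 to 1296).

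Time in culture called 20 members, and their directions depend on the scaling. After quantile normalization 9 were higher and 11 lower. Deposited signals of Ehmt2, Kmt2a, Kmt5a, Kdm4c, Setd4, Setd6, Prmt5, Sirt4 and Sirt5 fell in fewer conditions than their normalized values did. On the values as deposited 22 were called, 18 higher and 4 lower, and with arrays centred on their medians 17, 13 higher and 4 lower. The median of all genes between 36 and 12 h was -0.024 after quantile normalization, 0.092 as deposited and 0.041 after centring, and the share of higher genes among all calls was 46.3%, 74.9% and 64.2%. The 13 members called as deposited and after quantile normalization were the 9 higher genes (Sirt2, Kdm3b, Hdac3, Kmt2e, Hdac5, Ezh2, Setd7, Hdac2 and Setd1a) and Kmt5b, Prmt1, Kmt5a and Prmt5 among the lower. Sirt2, Hdac3, Hdac5 and Ezh2 were higher and Prmt1 and Prmt5 lower in 10 of 10 alternatives. Each of these genes has 1 probe set, so averaging probe sets could not change its values. Their count is therefore not comparable with that of genes with more probe sets. Markers moved with time as well. Of those tested 3 of 4 mesoderm markers (Mixl1, Evx1 and Hand1) rose and 4 of 5 epiblast markers fell. In the trophoblast list 3 of 4 (Cdx2, Tfap2c and Gata3) rose, and in the extraembryonic endoderm list 1 of 4 (Foxa2). Elf5 of the trophoblast list read at most 19.0 on all arrays, and Sox17 and Sox7 of the endoderm list at most 121 and 52.7. These rises do not show that either cell type was present. Sox1 rose and Tubb3 fell among the 3 neural markers, and Pdgfra rose and Thy1 fell among the 4 fibroblast markers. Their part in the result was not tested.

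**Figure D4:**
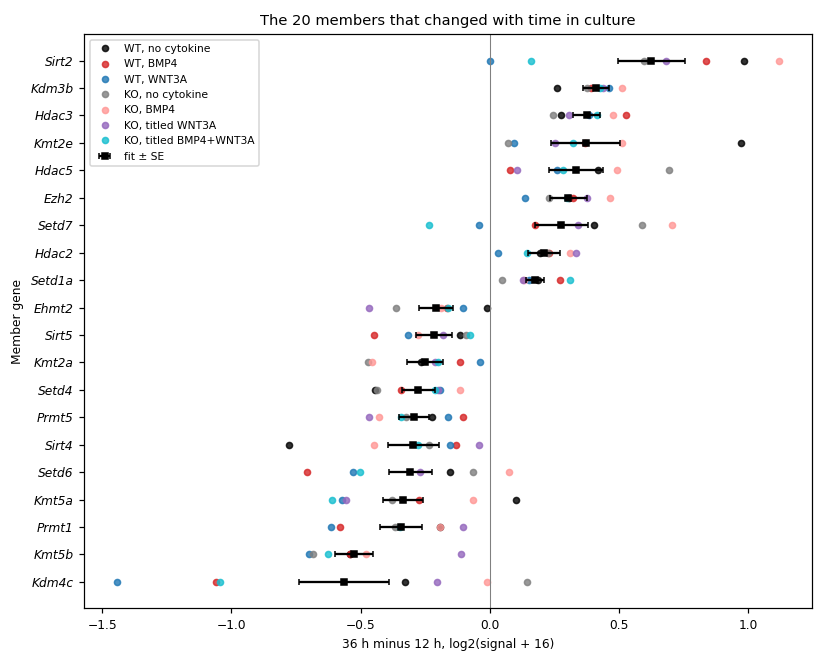
Difference between 36 h and 12 h in quantile-normalized log2(signal + 16) for the 20 members called. Black squares show the fit with the SE of the model, and coloured points each of the 7 conditions (1 array at each time). Points of Kdm3b, Hdac3 and Ezh2 all lie to the right of 0 and those of Kmt5b, Prmt1 and Prmt5 all to the left, while those of Kdm4c run from -1.44 to 0.15.

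Before any cytokine the genotypes were close. At 0 h there was 1 array each and no test. The median of the absolute difference between KO and WT was 0.073 over the 63 members and 0.089 over all genes tested. By more than 1 on the log2 scale 0 members differed, where 0.211% of all genes did. KO was the higher for 66.7% of the members and for 50.4% of all genes. From 0 h to 12 h without cytokine 0 members moved by more than 1 in WT, where 1.31% of all genes did. In KO 1 member did (1.59%), where 1.89% of all genes did: Kmt2d differed by -1.08, from 322 to 150.1.

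The 3 arrays of high Gapdh ratio held extreme values for some members. All 3 were the highest of the series for Setdb2, 103 to 122 against 48.2 to 99.04 elsewhere, and the lowest for Prmt7. These are also the 3 arrays that carried Setdb2 over the limit of 100. As a kept gene Setdb2 had to have them as its 3 highest, so its values are given as a description. Prmt7 is 1 of 63 members (1.59%), where 0.37% of all genes had these arrays as their 3 lowest. A share of 1 gene is not read as a result about the members. On the same 3 arrays Kmt2e read 391 to 630.3, against 156 to 405 elsewhere. Without these arrays, and with Prmt8 counted, BMP4 in WT called 1 member, BMP4 in KO 0, KO titled WNT3A 3 and KO titled BMP4+WNT3A 1. This fit rests on fewer arrays, and its share of all genes called is not given here.

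**Figure D5:**
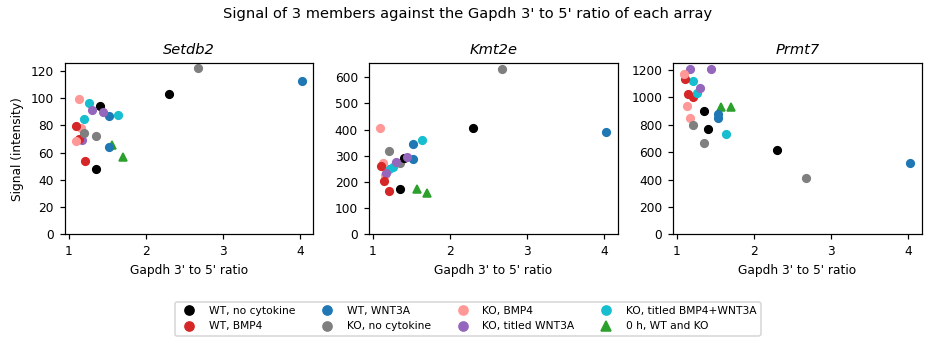
Signal of Setdb2, Kmt2e and Prmt7 against the Gapdh 3' to 5' ratio of the array, 1 point per array (n = 23), coloured by condition, with triangles for 0 h. The 3 arrays with ratios from 2.30 to 4.03 carry the highest Setdb2 and the lowest Prmt7 values. For Setdb2 this follows from how it was kept, as it exceeded 100 on these arrays alone.

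Beyond the families, 70 other genes of histone modification were listed (acetyltransferases, further methyltransferases and demethylases, PRC2 accessory, PRC1, COMPASS and corepressor subunits), and 65 were tested. BMP4 in WT lowered 1 of them (1.54%, against 3.47% of all genes), Jarid2, which guides PRC2 to its targets, with a difference of -0.999 ± 0.22 (adjusted p = 0.0186). WNT3A in WT lowered 1, Mta2 of the NuRD complex, with a difference of -0.52 ± 0.11 (adjusted p = 0.0451), where 0.543% of all genes were called, and on the values as deposited or with median centring 0 were called by limma, with 13 of 65 at an unadjusted p under 0.05 in each. By limma 0 of 65 were called with BMP4 in KO, between KO and WT without cytokine, for the difference of the BMP4 responses and between the 2 titled KO groups, with 4, 11, 5 and 2 at an unadjusted p under 0.05. In KO titled WNT3A 3 rose and 2 fell (7.69%, against 9.56% of all genes), and titled BMP4+WNT3A 3 rose and 3 fell (9.23%, against 6.83%). On the values as deposited 5 rose and 2 fell in the latter. In the first group Epop, Rbbp7 and Ncoa3 rose and Dpy30 and Pcgf3 fell, and in the second Epop, Rbbp7 and Phc2 rose and Dpy30, Pcgf3 and Mta3 fell.

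The genes described next were chosen after their values were seen. Epop, an accessory subunit of PRC2, read 1252, 1160.1 and 989 in KO without cytokine. It read 2106, 1885 and 1859 titled WNT3A and 2226, 2241 and 2574 titled BMP4+WNT3A, with no overlap, and rose by 0.75 ± 0.18 (adjusted p = 0.0125) and 1.00 ± 0.18 (adjusted p = 0.00277). Dpy30, a shared subunit of the H3K4 methyltransferase complexes, differed by -0.21 ± 0.048 (adjusted p = 0.00965) and -0.26 ± 0.048 (adjusted p = 0.00335). KO with BMP4 against WT with BMP4 had 2 of 65 higher and 4 lower (9.23%, against 7.28% of all genes), among them Jarid2, at 1333, 1652 and 1428 in KO and 838, 929 and 468 in WT, higher by 0.99 ± 0.22 (adjusted p = 0.0118). With time 5 rose and 16 fell (32.3%, against 38.8% of all genes) after quantile normalization, while 15 rose and 5 fell on the values as deposited and 9 rose and 8 fell with median centring. The largest differences were those of the PRC1 subunits Phc2, at 1.18 ± 0.12 (adjusted p = 3.7e-06), and Cbx7, at -1.02 ± 0.19 (adjusted p = 0.000494).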

How the data were processed

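Signals are intensity values on a linear scale as deposited by the authors, 1 per probe set and array with a floor of 1. Per the labels' protocols, cDNA made from total RNA was amplified, and the cRNA made from it carried biotin. The methods of summary and scaling are not given in the sources used here. The table has no detection calls. Of 45101 probe sets 34958 name 1 gene in the platform annotation, 932 name several and 9211 none. Those naming 1 gene were used, and 34754 of them matched RefSeq by gene identifier.

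From these values log2(signal + 16) was computed and quantile normalized. Of 18194 named genes, each read from its brightest probe set, 13258 exceeded the array median on 3 or more arrays and were tested. A linear model of 21 arrays, with 7 conditions and an additive block for time, was fitted with limma 3.58.1 (R 4.3.3) and left 12 residual degrees of freedom. Variances were moderated by empirical Bayes with a trend on mean signal. The 0 h arrays entered no test. Precision is limited by how few arrays there are. The threshold was a Benjamini-Hochberg adjusted p of 0.05 over all genes tested. The steps were tested on simulated data.

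The members, the lists and the tests were chosen with earlier results of these data known. Named with values are members called in any comparison (up to 12 higher and 8 lower in each), the PRC2 and Ehmt genes, the brightest and dimmest member of each family and the 10 with the largest standard deviation. Alternatives were median centring, values as deposited, an offset of 1 or 64, no filter, averaged probe sets per gene, array weights, leaving out each time, exchanged labels of the 6 KO arrays or a fit without them, and a fit without the 3 arrays of highest Gapdh ratio. Figures were drawn with matplotlib 3.10.9.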

Additional observations from a re-analysis of the deposited data

How the results depend on the processing

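Counts of members called, Prmt8 included, were 0 in every alternative run for KO against WT without cytokine and for the difference of the BMP4 responses. BMP4 in WT, with 2 members, gave 1 with no filter, in a fit that leaves out the 6 KO arrays, whose labels conflict, and without the 3 arrays of high Gapdh ratio, and 0 to 1 when a time was left out. BMP4 in KO, with 1 member, gave 0 on the values as deposited, with an offset of 1, with no filter, without the 6 KO arrays and without the 3 arrays of high Gapdh ratio, and 0 to 1 when a time was left out. KO titled WNT3A, with 5 members, gave 3 with the mean of probe sets, 3 without the 3 arrays of high Gapdh ratio, and 1 to 5 when a time was left out. KO titled BMP4+WNT3A, with 4, gave 2 on the values as deposited, 2 with the mean of probe sets, 8 with array weights, 1 without the 3 arrays of high Gapdh ratio, and 0 to 5 when a time was left out. Exchanging the labels of the 6 KO arrays exchanged the counts of 5 and 4. KO against WT with BMP4, with 7, gave 4 with the mean of probe sets and 0 to 4 when a time was left out. WNT3A in WT, with 0, gave 1 with an offset of 64, and the 2 titled KO groups against each other, with 0, gave 2 with array weights. Time, with 20, gave 12 without the 6 KO arrays. With the mean of probe sets the differences with time of Ehmt2, Kmt2e and Setd7 turned to 0.0065, -0.021 and -0.035, where the other probe sets read at most 22.2, 38.6 and 58.5. The cause was not tested, except that fits without arrays rest on fewer samples. The share of all genes called in those fits is not given, so their counts are not read as a result about the members. Conditions are matched by time, the factor that they share, through the block in the model. No further pairing was possible because the labels give no replicate numbers. Signals near the array medians limit Prmt8, and presence was not told apart from absence there.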
